A study of Homo sapiens with 6 samples.

Results

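The genes of the Notch receptors and ligands were followed in TE-10, a human cell line grown from an esophageal squamous cell carcinoma. The group was set by gene symbol and holds 10 genes: the 4 receptors NOTCH1 to NOTCH4, the 5 ligands JAG1, JAG2, DLL1, DLL3 and DLL4, and the related DLK2. They are 10 of the 18249 genes of the RNA-seq table, and 14 of the 15940 rows of the m6A peak list carry their symbols. RNA-seq was made from 2 libraries of TE-10 cells with a stable short hairpin RNA knockdown of METTL3 (knockdown 1 and knockdown 2, numbered as in the sample titles) and from 1 library of control TE-10 cells with normal METTL3. The titles mark the knockdown libraries as sh1 and sh2, read here as 2 hairpins with 1 library each. A difference between knockdown 1 and knockdown 2 therefore cannot be told apart from a difference between hairpins. The m6A map came from TE-10 cells with normal METTL3: 2 libraries immunoprecipitated with antibodies to N6-methyladenosine (m6A) and 1 input library. No group was methylation-profiled after knockdown. A peak below therefore says where these antibodies enriched RNA of unperturbed cells, and nothing of the m6A level after knockdown. Whether METTL3 placed the mark under a peak was not tested. The labels do not say whether the libraries came from separate cultures or clones, so a p-value here reflects how far these libraries spread. That spread may be technical and may also hold the difference between the hairpins.

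Notch receptors are single-pass membrane proteins that bind ligands on a neighbouring cell. Binding exposes the receptor to cleavage by an ADAM protease and then by gamma-secretase, and the freed intracellular domain enters the nucleus, joins RBPJ and MAML coactivators and turns on genes such as those of the HES and HEY repressors. In stratified squamous epithelium Notch signalling is known for driving cells out of the basal layer into differentiation, and NOTCH1 is often mutated in squamous carcinomas. METTL3 is the catalytic subunit of the complex that places m6A on mRNA, and in mammalian transcripts m6A is known to concentrate around stop codons and in 3′ untranslated regions (UTRs). The study's title links METTL3 to Notch signalling through m6A, and the comparisons here ask whether these genes differ on METTL3 knockdown and where their transcripts carry m6A peaks.

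Several features of the libraries bear on every value below. METTL3 had a signal of 8.35 in knockdown 1 and 4.99 in knockdown 2, against 20.81 in the control. Knockdown 2 stood apart from both other libraries: CDKN2A was at 144.68 there, against 0 in knockdown 1 and 0.04 in the control, and the mesenchymal filament gene VIM at 311.17, against 88.05 in knockdown 1 and 87.02 in the control. HOXB9 was at 53.12 in knockdown 2, against 0.35 in knockdown 1 and 0.03 in the control. IRS4 was at 23.56 in knockdown 2, against 0.04 in knockdown 1 and 0.05 in the control. Of 13 squamous epithelial markers, all were at 5 or more in every library, and their summed signal was 5117 in knockdown 1, 3435 in knockdown 2 and 5408 in the control. The 8 mesenchymal markers summed to 116.6 in knockdown 1, 326.6 in knockdown 2 and 111 in the control, with 4 of them under 1 in every library. VIM made up most of that sum, and the markers did not move together: CDH2, a mesenchymal cadherin, was at 18.28 in knockdown 1 and 5.93 in knockdown 2, against 14.24 in the control, and the matrix gene FN1 at 6.48 and 4.84 on knockdown, against 6.19. The 6 endothelial and 5 leukocyte markers were all under 1 in every library. The part of these differences between libraries in the results on Notch genes was not tested, and each result is therefore given per knockdown library. The signal is an expression value with 2 decimals whose unit, scaling for gene length and sequencing depth are not stated. It is therefore compared between libraries for 1 gene and not between genes, except where genes are ordered or grouped by signal. Gene length may affect that order or grouping.

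No Notch receptor or ligand passed the test on METTL3 knockdown. The test compared log2(signal + 1) between 2 knockdown libraries and 1 control by limma over the 12375 genes with a signal of at least 1 in at least 1 library, with Benjamini-Hochberg adjustment at 0.05. Of the 10 genes, 8 entered it; NOTCH4 and DLL4 were too low. None of the 8 was called in either direction, beside 0% of all tested genes called higher and 0% called lower. None of the 8 had an unadjusted p under 0.05 either, where 1.31% of all tested genes did. The control's spread is assumed to equal that of the knockdown libraries, with 1 residual degree of freedom for each gene. Limma draws the variance of each gene toward that of all tested genes. An SE therefore need not follow the gene's own gap between knockdown libraries: for DLL3 the gap was 0.02 and the SE 0.247. The intervals are wide, as the values below show. METTL3 itself, the target of the knockdown, did not pass either (log2 fold change -1.54, SE 0.327, unadjusted p 0.00337 by limma). The lowest limma adjusted p of any tested gene was 0.999984. The lack of calls is therefore no evidence that the Notch genes were unchanged.

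Of the 8 genes tested, 3 were lower than the control in both knockdown libraries (NOTCH1, JAG1 and JAG2), 3 were higher in both (NOTCH2, DLL3 and DLK2) and 2 were mixed (NOTCH3 and DLL1). Among all tested genes, 30.4% were lower in both and 28% higher in both. In knockdown 1 alone 5 of the 8 were lower and 3 higher, beside 52.1% and 47.3% of tested genes; in knockdown 2 alone 3 were lower and 5 higher, beside 49.7% and 50%. The median log2 difference of the 8 genes was -0.13 in knockdown 1 and 0.04 in knockdown 2, against -0.01 and 0.00 for all tested genes. Both knockdown libraries are set against the same control library, so a shared direction carries that library's own error. The counts lower and higher in both are near the shares of all tested genes, and no direction of the group is read from them. None of the 8 reached a 2-fold difference of signal + 1 in either library, a size met in knockdown 2 by 3.64% of tested genes upward and 0.978% downward and in knockdown 1 by 0.242% upward and 0.404% downward.

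**Figure D1:**
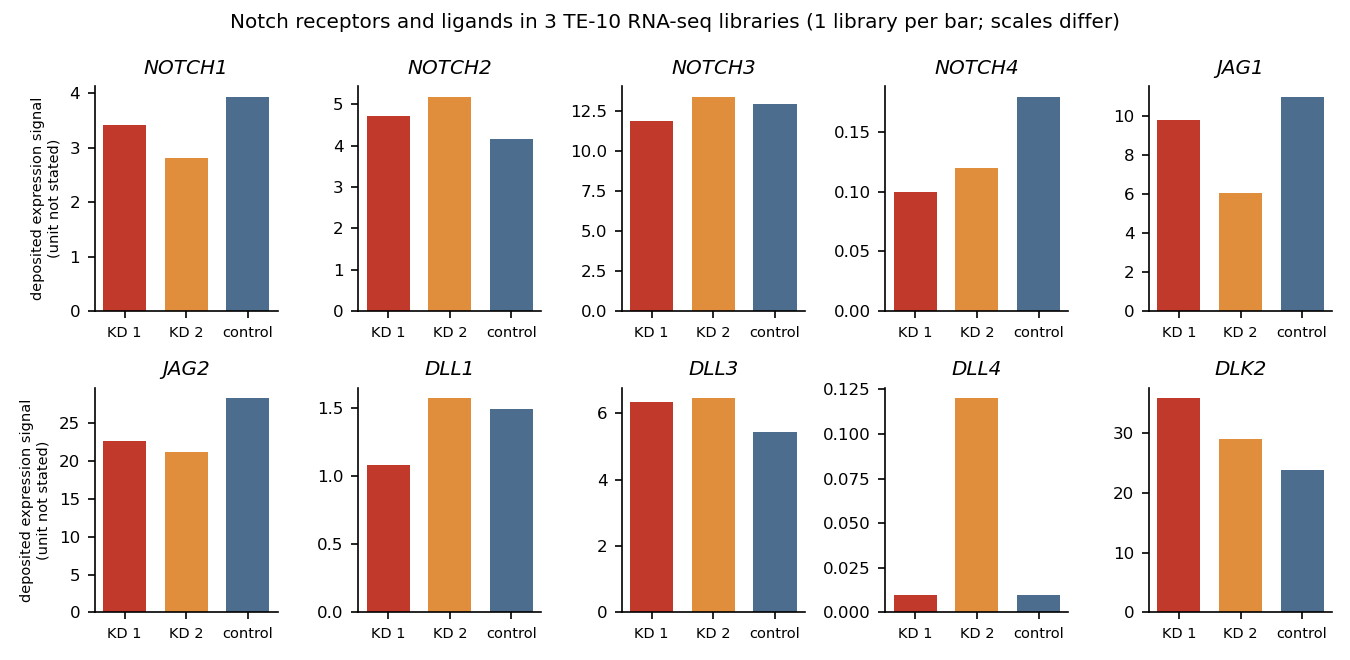
Deposited expression signal (vertical axis, unit not stated, a scale of its own for each gene) of the 10 Notch receptor and ligand genes in METTL3 knockdown 1, knockdown 2 and the control, 1 library per bar. NOTCH1, JAG1 and JAG2 are lower in both knockdown libraries than in the control and NOTCH2, DLL3 and DLK2 higher, while NOTCH4 and DLL4 do not exceed 0.18.

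Among the receptors, NOTCH1, the main receptor of differentiating squamous cells, had a signal of 3.42 in knockdown 1 and 2.81 in knockdown 2, against 3.94 in the control. Both knockdown libraries lay below the control, knockdown 2 the further, with a log2 fold change of -0.27 (SE 0.298, 95% interval -0.999 to 0.464, limma adjusted p = 1). NOTCH2, the receptor known for roles in liver, kidney and marginal zone B cells, was at 4.71 in knockdown 1 and 5.18 in knockdown 2, against 4.15 in the control. Here the order was the opposite, with both knockdown libraries above the control and a log2 fold change of 0.21 (SE 0.265, 95% interval -0.44 to 0.86).

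NOTCH3, known for its role in vascular smooth muscle and also expressed in squamous epithelium, was at 11.85 in knockdown 1 and 13.38 in knockdown 2, against 12.95 in the control. The control fell between the knockdown libraries, and the log2 fold change was -0.04 (SE 0.24, 95% interval -0.63 to 0.55). NOTCH4, a receptor mainly of endothelial cells, was at 0.1 in knockdown 1 and 0.12 in knockdown 2, against 0.18 in the control. These values, of a gene too low to be tested, stand beside endothelial markers that were also under 1, among them CDH5 at 0.21 in knockdown 1, 0.06 in knockdown 2 and 0.37 in the control.

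NOTCH2 has partial copies of its 5′ part, the human NOTCH2NL genes, and reads or peaks in the shared stretch cannot be assigned with certainty. NOTCH2NLB was at 2.99 in knockdown 1 and 1.39 in knockdown 2, against 3.35 in the control. NOTCH2NLC was at 3.86 in knockdown 1 and 1.91 in knockdown 2, against 3.86 in the control. NOTCH2NLA did not exceed 0.17 and NOTCH2NLR 0.87. In knockdown 2 NOTCH2 was thus above its control while NOTCH2NLB and NOTCH2NLC were below theirs; neither copy passed limma's test (adjusted p = 1 for both).

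Among the ligands, JAG1 had the largest difference in a single library on the log2 scale. This ligand of the Jagged family, which activates Notch in trans, was at 9.8 in knockdown 1 and 6.06 in knockdown 2, against 10.97 in the control. The signal in knockdown 1 was 0.893 times that of the control, and the signal in knockdown 2 was 0.552 times it. On the log2 scale its fold change was -0.46 (SE 0.321, 95% interval -1.24 to 0.33, limma adjusted p = 1), with -0.15 in knockdown 1 and -0.76 in knockdown 2. The difference in knockdown 2 lay at percentile 2.4 of all tested genes in that library, and that in knockdown 1 at percentile 28.8 of its own. The larger difference of JAG1 thus lay in knockdown 2. In that library CDKN2A was at 144.68 and METTL3 at 4.99, against 8.35 for METTL3 in knockdown 1. The part of these differences and that of the hairpin cannot be told apart.

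JAG2, the second Jagged ligand, was at 22.58 in knockdown 1 and 21.19 in knockdown 2, against 28.27 in the control. The knockdown libraries were close to each other here, at 0.799 and 0.75 times the control, percentiles 12.1 and 11.2 of all tested genes. The log2 fold change was -0.36 (SE 0.238, 95% interval -0.94 to 0.23, limma adjusted p = 1). Of the 3 genes lower in both libraries, JAG2 was the one with the smallest gap between the knockdown libraries (-0.09 on the log2 scale, knockdown 2 minus knockdown 1, against -0.61 for JAG1 and -0.21 for NOTCH1).

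Of the Delta-like ligands, DLL1 and DLL3 were tested. DLL1, an activating ligand, was at 1.08 in knockdown 1 and 1.57 in knockdown 2, against 1.49 in the control, so that the control lay between the knockdown libraries (log2 fold change -0.11, SE 0.415). DLL3, a divergent ligand that resides largely inside the cell and is known for inhibiting Notch in the cell that makes it, was at 6.34 in knockdown 1 and 6.46 in knockdown 2, against 5.45 in the control. Both knockdown libraries were above the control and within 0.02 of each other on the log2 scale, with a fold change of 0.20 (SE 0.247, 95% interval -0.41 to 0.80). DLL4, the ligand of endothelial tip cells, was listed at 0.01 in knockdown 1, 0.12 in knockdown 2 and 0.01 in the control.

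DLK2, a membrane protein with EGF-like repeats that lacks the receptor-binding domain of the canonical ligands and is known in mouse as an inhibitor of Notch, had the largest positive log2 fold change of the 8 tested genes. It was at 35.89 in knockdown 1 and 29.04 in knockdown 2, against 23.92 in the control. The difference was 50% in knockdown 1 and 21.4% in knockdown 2, percentiles 98.0 and 77.4 of all tested genes. The larger value thus came from knockdown 1, the library without the high CDKN2A and with METTL3 at 8.35, against 4.99 in knockdown 2. In knockdown 2 alone NOTCH2 was further above its control in percent (24.8%) than DLK2. The log2 fold change was 0.42 (SE 0.26, 95% interval -0.22 to 1.05, limma adjusted p = 1).

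**Figure D2:**
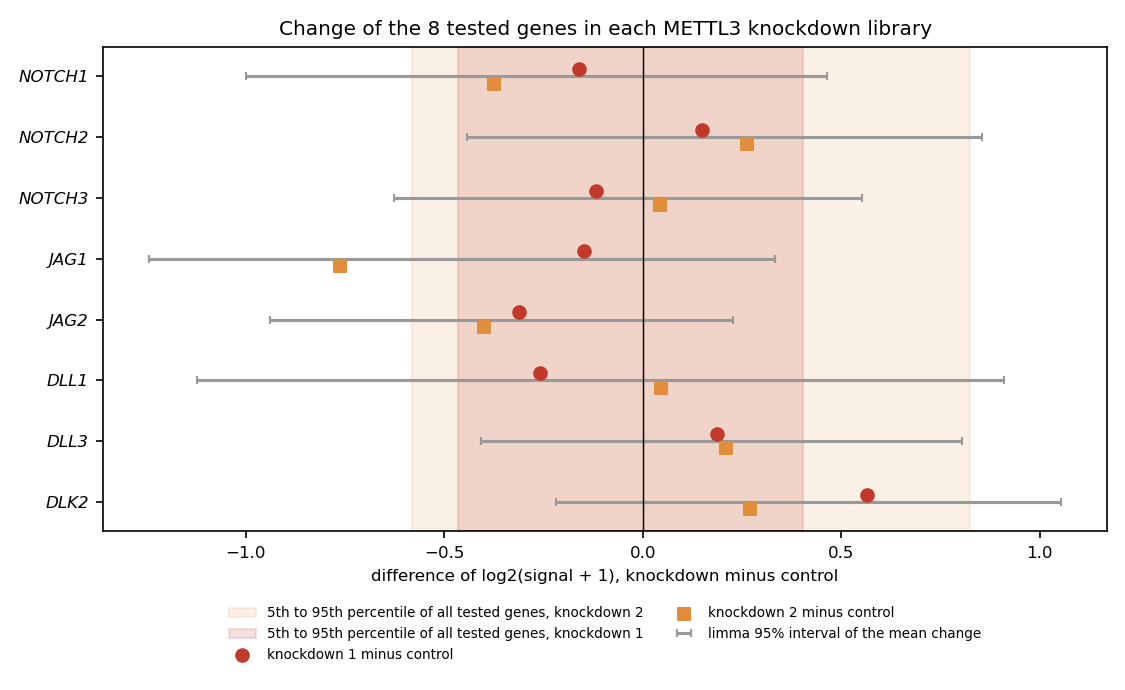
Difference of log2(signal + 1), knockdown minus control, of the 8 tested genes in knockdown 1 (circles) and knockdown 2 (squares), with limma's 95% interval of the mean change (grey lines). Shaded bands span the 5th to the 95th percentile of all 12375 tested genes (-0.47 to 0.40 in knockdown 1 and -0.58 to 0.82 in knockdown 2): JAG1 in knockdown 2 and DLK2 in knockdown 1 lie outside their bands, and every interval includes 0.

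In cells with normal METTL3, m6A peaks were annotated to 7 of the 10 genes, beside 42.6% of the 18249 genes of the table. NOTCH1 and NOTCH2 had 3 peak rows each, JAG1, JAG2 and DLK2 had 2 each, and NOTCH3 and DLL1 had 1 each. NOTCH4, DLL3 and DLL4 had none in the list. Of the 8 tested genes 7 had a peak, beside 56.6% of all tested genes, counting peaks of any class. For peaks in an exon or UTR it was also 7 of 8, beside 45.9% of tested genes. In the list, 5 of the 8 genes had at least 2 rows, beside 26.6% of tested genes, and 2 had at least 3, beside 11.5%.

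The share of genes with a peak varied with their signal. NOTCH4 and DLL4, with a control signal under 1, had no peak, beside 15.1% of all genes in that range with one. NOTCH1, NOTCH2 and DLL1, from 1 to under 5, all had a peak, beside 59.6% of genes. From 5 to under 20, NOTCH3 and JAG1 had a peak and DLL3 did not, beside 63.5% of genes with one. JAG2 and DLK2, at 20 or more, both had a peak, beside 50.8% of genes. DLL3 was therefore the single gene of the 8 tested that had no peak, at a signal where most genes of the table had one. The ranges were chosen after the values were seen, and gene length may affect which range a gene falls in, since the scaling is not stated.

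**Figure D3:**
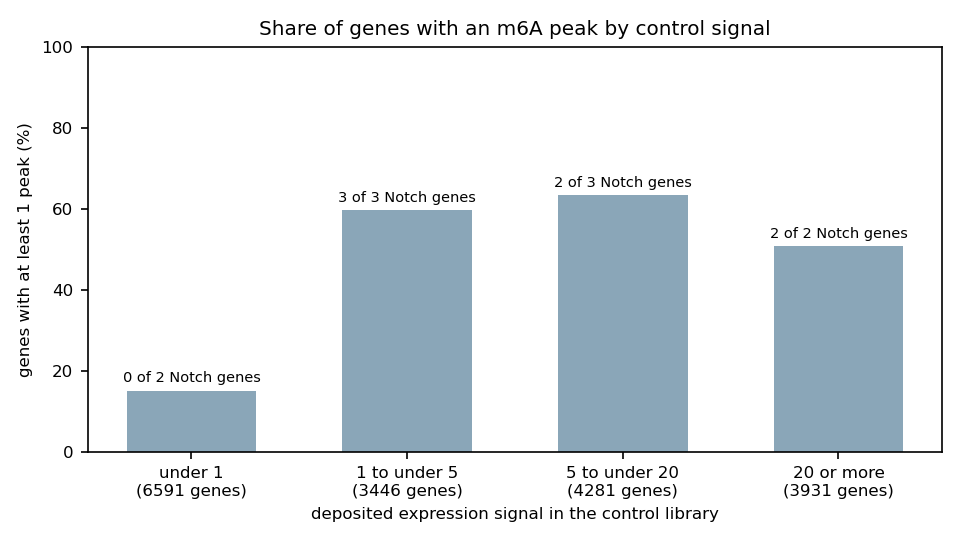
Share of all genes in the RNA-seq table with at least 1 m6A peak (vertical axis, percent) by signal in the control library, with the number of Notch receptor and ligand genes that have a peak above each bar. The share is 15.1% under a signal of 1 and between 50.8% and 63.5% above it, and the Notch genes with a peak all have a control signal of at least 1.

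Peak positions are given as in the authors' list, which names no genome build. The submitters' processing notes name hg38, yet only 1 of the 14 rows falls within the span of its gene in GRCh38, so the coordinates are not taken to be of that build. The list gives the distance of each peak's centre from the start of its UCSC transcript. It holds no score, fold enrichment or q-value, and whether the immunoprecipitations were pooled is not stated, so peaks could not be ranked or compared between replicates.

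In NOTCH1 all 3 peaks lay at the 3′ end of the gene, on the minus strand of chromosome 9. A pair of exon peaks at chr9:139391230-139391830 (601 bases) and chr9:139390560-139391139 (580 bases) were separated by 90 bases. After a further 846 bases came a 3′ UTR peak at chr9:139389458-139389713 (256 bases). The 3 peaks fell within 2373 bases, centred 48708, 49389 and 50653 bases from the transcript start along the genome. The exon peaks were wide for their class, at percentiles 80.2 and 78.4 of all exon peaks in the list.

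NOTCH2, on the minus strand of chromosome 1, had peaks at both ends of its gene. Its exon peak at chr1:120458334-120458569 (236 bases) and its 3′ UTR peak at chr1:120457344-120458118 were 215 bases apart, centred 153866 and 154586 bases from the start along the genome. At 775 bases the 3′ UTR peak was the widest of the 14 and at percentile 90.9 of all 3′ UTR peaks. The third peak, at chr1:120612111-120612315 (205 bases, class 5′ UTR), ran from about 2 to about 206 bases after the transcript start. This stretch lies in the part of the gene that the NOTCH2NL copies share, so its assignment to NOTCH2 is uncertain; no row of the list carries a NOTCH2NL symbol.

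JAG1, on the minus strand of chromosome 20, showed the same pairing of a start peak and a distal one. Its 5′ UTR peak at chr20:10654496-10654717 (222 bases) was centred 88 bases from the start and began about 22 bases before it. Its exon peak at chr20:10620064-10620546 (483 bases) was centred 34389 bases from the start. JAG1 had no 3′ UTR peak in the list. Across the whole list, 58.1% of the 1842 peaks of the 5′ UTR class were centred within 200 bases of a transcript start, as the 5′ UTR peaks of NOTCH2 and JAG1 were. The limit of 200 bases was not set in advance.

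To show the starts near which these peaks were found, 50 bases before and 30 bases after the gene start are printed below for both genes from RefSeq (GRCh38.p14, minus strand, 5′ to 3′). JAG1 is chr20:10673970-10674049 and NOTCH2 is chr1:120069633-120069712. If RefSeq's start and that of the UCSC transcript agree, the stretches hold only the first bases of each peak. The peak runs to about 206 bases after the UCSC start in NOTCH2 and about 198 in JAG1. RefSeq's start need not be the start of the UCSC transcript that the peak list used. Capitals mark the motif GGAC followed by A, C or T, a form of the consensus in which METTL3 methylates the A.
JAG1: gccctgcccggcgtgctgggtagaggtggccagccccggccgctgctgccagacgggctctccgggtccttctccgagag
NOTCH2: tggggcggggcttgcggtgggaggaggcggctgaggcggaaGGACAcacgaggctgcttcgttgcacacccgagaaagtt

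In NOTCH2 the motif stood 9 bases before RefSeq's start, outside the transcript that RefSeq annotates. Whether it lies within the peak cannot be told, because the peak is placed from the UCSC start in coordinates of another build. In the JAG1 stretch none was found on the coding strand. Promoter windows of 250 bases before and 50 bases after the start were at hand for 8 of the 10 genes (not DLL1 and DLL3). On the coding strand 6 of the 8 windows held this motif, beside 58.7% of 35116 promoter windows; with either strand counted it was 7 of 8, beside 82.3%. In the 50 bases after the start none of the 8 held the motif on the coding strand, beside 14.5% of all windows. The RBPJ core TGGGAA, read on both strands, was in 0 of the 8 windows, beside 24% of all windows. These matches are descriptions of the letters in the windows.

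The remaining peaks also lay toward the 3′ end, with an intronic exception. JAG2 (chromosome 14, minus strand) had an exon peak at chr14:105608943-105609298 (356 bases) and a 3′ UTR peak at chr14:105608300-105608679 (380 bases), 263 bases apart. NOTCH3 (chromosome 19, minus strand) had an exon peak of 232 bases at chr19:15272050-15272281, centred 39627 bases from the start. DLL1 (chromosome 6, minus strand) had a 3′ UTR peak of 230 bases at chr6:170591700-170591929, centred 7883 bases from the start. DLK2 (chromosome 6, minus strand) had an exon peak of 338 bases at chr6:43418607-43418944, and an intron peak of 311 bases at chr6:43422506-43422816, which lay 3561 bases nearer the start.

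**Figure D4:**
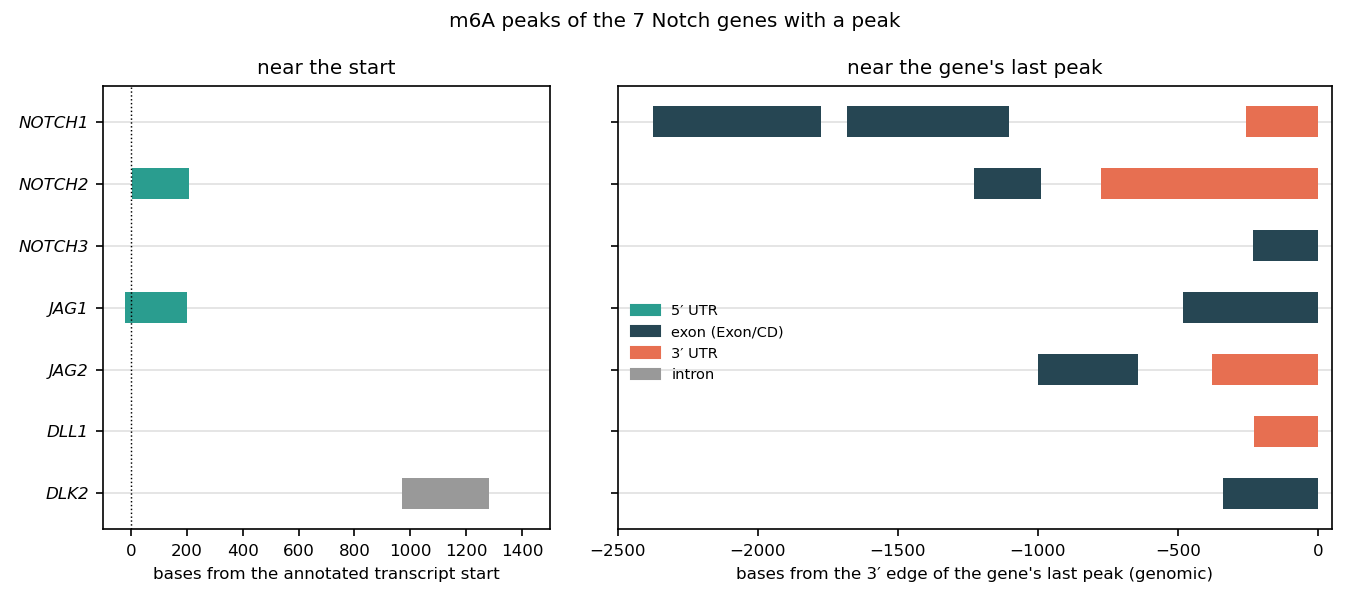
Positions of the 14 m6A peaks of 7 Notch genes, coloured by the class the authors' list gives: the left panel in bases from the transcript start, the right panel in genomic bases from the 3′ edge of each gene's last peak. NOTCH2 and JAG1 have a 5′ UTR peak at the start, and in NOTCH1, NOTCH2 and JAG2 an exon peak lies 846, 215 and 263 bases before the 3′ UTR peak.

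By class, 7 of the 14 peaks were in exons (50%), 4 in 3′ UTRs (28.6%), 2 in 5′ UTRs (14.3%) and 1 in an intron (7.14%). In the whole list the shares were 34.1% exon, 21.5% 3′ UTR, 11.6% 5′ UTR and 23.5% intron, with 7.84% upstream of starts, a class that held no Notch peak. The 14 widths ranged from 205 to 775 bases with a median of 324.5, close to the median of 316 over the list. NOTCH1, NOTCH2 and JAG2 each had both an exon and a 3′ UTR peak, 3 of the 8 tested genes, beside 6% of all tested genes. Of the 4 Notch peaks in a 3′ UTR, 3 had an exon peak of the same transcript within 1000 bases, beside 11.8% of the 3423 peaks of that class. The limit of 1000 bases was not set in advance, and the gaps of 846, 215 and 263 bases fall within it. No peak of another gene overlapped any of the 14. Rows of 1 gene share a transcript, so the 14 peaks are not independent.

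Setting peaks beside expression, the 7 genes with an exon or UTR peak were divided: NOTCH1, JAG1 and JAG2 were lower in both knockdown libraries, NOTCH2 and DLK2 higher in both, and NOTCH3 and DLL1 mixed. Among all 5686 tested genes with such a peak, 34% were lower in both and 26.5% higher in both, and among the 6689 without one 27.4% were lower and 29.3% higher. The median log2 difference of the 7 genes was -0.15 in knockdown 1 and 0.04 in knockdown 2. For all tested genes with such a peak the medians were -0.02 and -0.03. NOTCH1 and NOTCH2 had the same number of peak rows and opposite directions. The 5′ UTR row of NOTCH2 is of uncertain assignment, and the intervals of both log2 fold changes span both signs.

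The other genes of the pathway were taken from lists chosen with earlier results of these data known. No gene of these lists passed limma's test in either direction. Of 25 tested genes for trafficking, cleavage and release of ligands and receptors, 14 were lower in both knockdown libraries and 4 higher in both, beside 30.4% and 28% of all tested genes. The list's median log2 difference was -0.09 for knockdown 1 and -0.12 for knockdown 2. In each list the genes with the highest mean signal are named; this order may reflect gene length, since the scaling is not stated. Here they were EPN1, an endocytic adaptor for ligands, at 176.57 in knockdown 1 and 127.07 in knockdown 2, against 132.05 in the control, and the gamma-secretase subunits APH1A (139.2 and 128.64 on knockdown, 129.47 in the control) and PSENEN (133.75 and 98.46 on knockdown, 107.42 in the control). The control lay between the knockdown libraries for all 3 genes. Peaks were annotated to 17 of the 25, beside 56.6% of all tested genes, with 3 rows each for the kinase gene AAK1 and for MIB2, a ligase gene of ligand endocytosis.

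Of 9 tested genes for receptor glycosylation and folding, 4 were lower and 2 higher in both, beside the same 30.4% and 28%. POFUT1, which adds O-fucose to Notch EGF repeats, was at 21.56 in knockdown 1 and 20.21 in knockdown 2, against 27.28 in the control. ATP2A2, the calcium pump of the endoplasmic reticulum, was at 60.66 and 48.6 on knockdown, against 67.15 in the control, and the fringe RFNG at 43.69 and 37.59, against 38.55. POFUT1 and ATP2A2 were thus below the control in both libraries and RFNG in knockdown 2. The xylosyltransferase gene XXYLT1 had 4 peak rows.

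Of 18 genes of the nuclear complex, 8 were lower and 4 higher in both (30.4% and 28% of all tested genes), with HDAC1 at 81.93 in knockdown 1 and 92.71 in knockdown 2, against 78.95 in the control. SNW1, a scaffold of the complex, was at 44.58 and 40.48 on knockdown, against 39.41 in the control. The corepressor NCOR1 was at 36.91 and 32.13, against 38.33. This list held 42 peak rows over 13 of its 18 genes, beside 56.6% of tested genes with a peak: MAML1, a coactivator, had 7, SPEN, a corepressor, 6, FBXW7, which marks the intracellular domain for degradation, 4, and RBPJ, EP300, KDM5A, MAML2, NCOR1 and TLE3 were among those with 3. None of the 10 receptors and ligands had more than 3.

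Of 16 targets, 5 were lower in both and 1 higher in both, against shares of 30.4% and 28% over all tested genes, the other 10 being mixed. The list's median log2 difference was -0.24 for knockdown 1 and 0.15 for knockdown 2, where CDKN2A was at 144.68. CCND1, CDKN1A and BHLHE40, named by mean signal, were all lower in both; BHLHE40 was at 52.62 in knockdown 1 and 42.72 in knockdown 2, against 61.72 in the control. CCND1 was at 230.8 and 168.74 on knockdown, against 245.47 in the control, and CDKN1A at 54.7 and 54.17, against 67.77. The repressor genes went otherwise in knockdown 2; they are given here after their values were seen. Of the 8 HES and HEY genes of the list, 1 was higher and 7 lower than the control in knockdown 1, beside 47.3% and 52.1% of all tested genes. In knockdown 2, 7 were higher and 1 lower, beside 50% and 49.7%. These counts include small differences, such as HES2 at 2.2 in knockdown 2 against 2.14 in the control. In knockdown 2, 4 of the 8 were at least 2-fold higher on log2(signal + 1), beside 3.64% of all tested genes. HEY1 was at 5.37 in knockdown 1 and 22.73 in knockdown 2, against 7.57 in the control, and HES4 at 29.26 and 81.75 on knockdown, against 33.2. HES5 was at 0.22 and 6.2 on knockdown, against 0.47 in the control, and HEY2 at 0.44 and 3.46, against 0.13. NRARP, a Notch-induced feedback inhibitor, was at 8.16 in knockdown 1 and 21.41 in knockdown 2, against 12.17 in the control. HES1 was at 40.66 and 48.02 on knockdown, against 48.44 in the control. The high values thus lay in knockdown 2, where CDKN2A was at 144.68 and METTL3 at 4.99, against 8.35 in knockdown 1. The part of these differences or of the hairpin was not tested. None of these genes passed limma's test (adjusted p = 1 for each). Other targets, also given after their values were seen, were lower than the control in knockdown 2. IL7R was at 8.59 in knockdown 1 and 2.74 in knockdown 2, against 10.75 in the control. SOX9 was at 3.7 and 1.87 on knockdown, against 3.56, and GATA3 at 5.23 and 2.32, against 3.3. HES2, IL7R and MYC had 3 peak rows each. Of the 5 tested non-canonical ligands 1 was higher and 1 lower in both, beside 28% and 30.4%. CNTN1, a neural contactin, was at 9.75 in knockdown 1 and 6.55 in knockdown 2, against 15.11 in the control (log2 fold change -0.84, SE 0.296, limma adjusted p = 1, unadjusted p 0.0303 by limma). EGFL7 was at 32.57 and 32.52 on knockdown, against 29.59 in the control, and MFAP2 at 19.48 and 13.66, against 15.99. Of 9 m6A writer genes, 3 were lower and 3 higher in both (30.4% and 28% of all tested genes). On log2(signal + 1) METTL3 was the 1 tested gene of all lists at least 2-fold different in the same direction in both libraries; by the plain ratio of signals HEY2 was as well, from a control value of 0.13. Peak rows numbered 4 each for CBLL1 and ZC3H13, 3 each for WTAP and RBM15, 2 for RBM15B and 0 for METTL3.

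**Figure D5:**
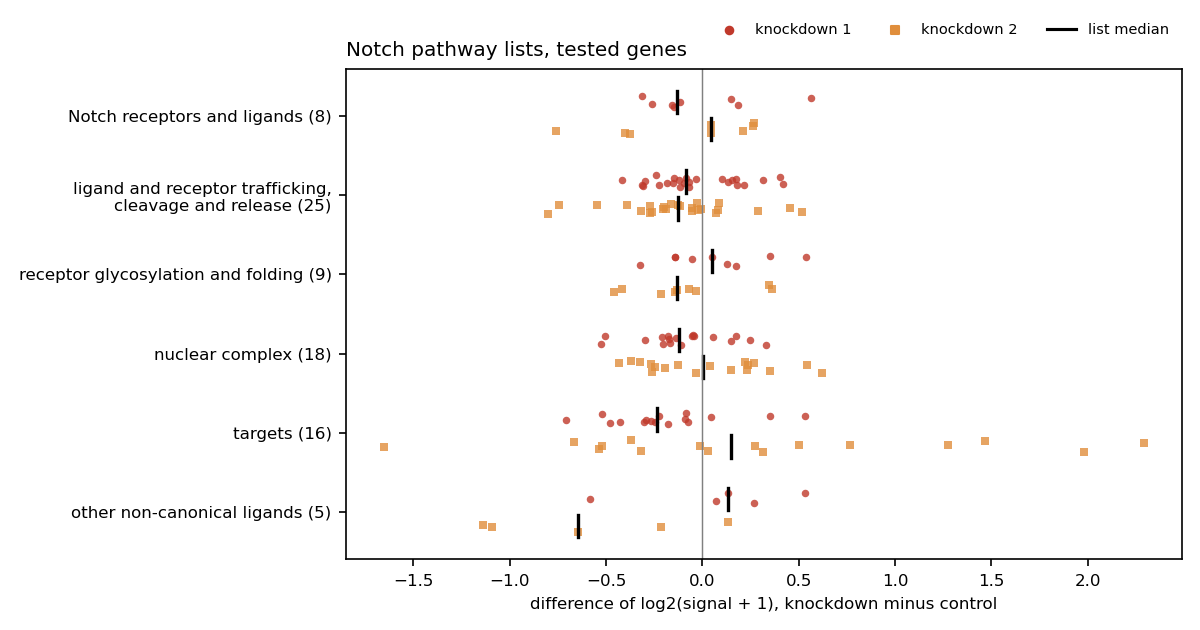
Difference of log2(signal + 1), knockdown minus control, of tested genes in the Notch lists, 1 point per gene and knockdown library, with list medians as black bars. The receptors and ligands range from -0.76 to 0.57, and the targets have medians of -0.24 in knockdown 1 and 0.15 in knockdown 2.

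Likeness to the 5 Notch genes with a mean signal of at least 5 was measured as the Euclidean distance of log2(signal + 1), centred on the control, over the 3 libraries. The pool was the 63 genes of the lists that also had a mean signal of at least 5, whatever their level above it. JAG2 was nearest to POFUT1 (0.02) and CDKN1A (0.08). JAG1 was nearest to FURIN (0.09), NEURL1B (0.17) and CCND1 (0.23), FURIN being at 55.38 in knockdown 1 and 38.76 in knockdown 2, against 65.68 in the control. NOTCH3 was nearest to ADAM17 (0.07), CDK8 (0.09) and METTL14 (0.10), and DLL3 to CBLL1 (0.03), TLE3 (0.04) and EGFL7 (0.09). DLK2 had no near neighbour in the lists: EPN1 (0.36), CBLL1 (0.36) and DLL3 (0.38) were the closest. With 3 libraries that share 1 control, these distances describe the libraries alone.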

How the data were processed

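RNA-seq covered 2 METTL3 knockdown libraries and 1 control library of TE-10 cells, and m6A was mapped in 2 immunoprecipitated libraries and 1 input. The labels' protocols name a stranded kit for polyadenylated RNA. TopHat2 and HTSeq are named for all samples, and MACS2 for the m6A samples, per the submitters' processing notes, without version or settings. The deposited RNA-seq table holds an expression signal whose scaling the authors do not state in its header. Column sums were 617840 in knockdown 1, 627152 in knockdown 2 and 608291 in the control, so the values are neither counts nor a complete CPM or TPM table. Depth is unknown, and no counting interval is given.

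Signals were taken as log2(signal + 1), and a gene had to reach a signal of 1 in some library. The knockdown libraries were set against the control with limma (3.58.1, R 4.3.3) with a mean-variance trend. The procedure was also run on simulated data that gave all genes and libraries the same spread. That run does not show how the test performs on these libraries. Peaks were matched by gene symbol. Of 8906 symbols in the peak list 7185 matched the RNA-seq table directly and 590 through RefSeq synonyms (GRCh38.p14), and 1131 did not match. Peak widths count both end bases. The distance column places each transcript's start at 1 position within 1 base in all 3980 transcripts with several peaks. The authors' conservation and overlap columns hold no values.

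The 10 genes and all lists were chosen with earlier results of these data known. Genes named besides them are, per list, the 3 with the highest mean signal, any at least 2-fold different in the same direction in both knockdown libraries on log2(signal + 1), and any with as many peak rows as NOTCH1. Markers and NOTCH2NL copies are named as limits. A gene that this rule also names is not reported here. Python 3.11.15, numpy 2.4.6, pandas 2.3.3 and matplotlib 3.10.9 were used. Alternatives were the pseudocount, the filter, the trend, 3 scalings, leaving out a knockdown library, and the choice of peaks.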

Additional observations from a re-analysis of the deposited data

How the results depend on the processing

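No Notch receptor or ligand passed limma's test under any alternative: a pseudocount of 0.1, no filter, a mean signal of at least 5, no trend, equal sums, median-of-ratios scaling or quantile normalization. Nor did any gene of the table, with 123 to 444 genes at an unadjusted p under 0.05 (162 as reported). The sign of the log2 fold change of each of the 8 genes was the same in all of these, except that a mean signal of at least 5 left 5 of the 8 and gave no value for NOTCH1, NOTCH2 and DLL1: JAG1 ranged from -0.50 to -0.46, JAG2 from -0.39 to -0.34, NOTCH1 from -0.34 to -0.27 and DLK2 from 0.39 to 0.43. NOTCH3 stayed near 0, from -0.07 to -0.01. Scaling moved the median of all genes by less than 0.1 on the log2 scale.

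Leaving out a knockdown library leaves 1 against 1 with no test. The number of genes lower than the control was then 5 in knockdown 1 and 3 in knockdown 2, and the number higher 3 and 5; the median was -0.13 in knockdown 1 and 0.04 in knockdown 2. Over all 10 genes, an alternative chosen after seeing the data, the medians were -0.11 and 0.04. With quantile normalization 4 genes were lower in both. Of the 14 peaks 7 were at least as wide as the median row, in 5 genes, and the 3′ UTR class alone held 4 peaks in 4 genes. With 1 peak list, no immunoprecipitation could be left out. No paired analysis was possible because the control has 1 library and shares only number 1 with the knockdown group. Unknown depth and 1 control library limit every difference given here.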
